A study of Homo sapiens with 4 samples.

Results

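The mRNAs described here are those of 10 genes of the YAP/TAZ and TEAD branch of the Hippo pathway, chosen by name as 10 of the 61541 genes in the deposited count table. They are the coactivators YAP1 and WWTR1 (which encodes TAZ), the DNA-binding partners TEAD1 and TEAD4, and 6 genes that these factors are known to switch on, CCN1, CCN2, THBS1, ANKRD1, AMOTL2 and LATS2. All 10 were found in the table and all 10 passed the filter on low counts. RNA was sequenced from MHCC97H, an established human hepatocellular carcinoma (HCC) line, in 2 libraries labelled shCon (control) and 2 labelled shUBXN1 (UBXN1 knockdown). UBXN1 encodes an adaptor of the p97/VCP ATPase that binds ubiquitinated proteins. In the study's methods the knockdown used short hairpin RNAs delivered by lentivirus and the control hairpin is called shRFP, whereas the labels write shCon. Which of the UBXN1 hairpins was sequenced is not given in the sources used here, so hairpin and knockdown cannot be told apart, and all libraries come from 1 cell line with no labelled difference other than the hairpin. No source used here says whether replicates were separate cultures. The p-values rest on the spread between these libraries, which the fit shares over genes and which may be technical.

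YAP and TAZ carry no DNA-binding domain of their own and reach their target genes through the TEAD factors. When the Hippo kinases MST1/2 and LATS1/2 are active, they phosphorylate YAP and TAZ, which are then held in the cytoplasm or degraded. In the liver this pathway restrains organ size, and YAP activity is known to drive hepatocyte proliferation and liver tumours. Regulation of YAP and TAZ is largely at the protein level, which mRNA counts do not measure.

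Summed over genes, the libraries held 27380508 and 24305174 counts for shCon and 23433826 and 23373700 for shUBXN1, and UBXN1 itself followed the labels. UBXN1 stood at 67.1 and 77.3 CPM (counts relative to library size, scaled by TMM) in shCon and at 16.8 and 18.5 CPM in shUBXN1, with 24.5% of the control level left (log2 fold change -2.03, SE 0.0963, edgeR quasi-likelihood adjusted p = 9.98e-10). Of 16863 genes tested, 4727 were called higher and 4751 lower at an adjusted p under 0.05. Differences between these groups were therefore common, and the counts of members below are read against that background. Hepatocyte marker mRNAs (ALB, AFP, APOA1, APOB, TTR, SERPINA1, KRT8 and KRT18) summed to 4300 and 4460 CPM in shCon and 3400 and 3990 CPM in shUBXN1. Of these 8 genes 4 fell and 2 rose, beside 28.2% lower and 28.0% higher of all genes tested. The keratins KRT8 and KRT18 moved apart, with log2 fold changes of -0.44 and 0.31. Most of that sum was the keratin KRT8, at 2330 to 3470 CPM, while ALB stood at 17.2 to 18.0 CPM in shCon and 4.20 to 4.78 CPM in shUBXN1. The hepatocyte label thus rests on keratins more than on albumin in these cells. All libraries carry the label of the same cell line, so these markers are read as its mRNAs and not as a share of cell types. A bulk count cannot tell a change in every cell of that line from a change in some of its cells.

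Of the 10 mRNAs, 5 rose, 2 fell and 3 did not pass the test after UBXN1 knockdown (adjusted p under 0.05). The same threshold was passed upwards by 28.0%, downwards by 28.2% and either way by 56.2% of all genes tested. The coactivators and 5 of the 6 targets moved in opposite directions, while THBS1 did not pass the test. Both coactivators, YAP1 and WWTR1, fell to 73.7% and 72.2% of control. Neither TEAD1 nor TEAD4 passed the test, and 5 of the 6 targets rose, by 1.19-fold for AMOTL2 to 2.62-fold for CCN1. The median log2 fold change was 0.15 over the 10 genes and 0.016 over all genes tested. The study set a fold change of at least 2 either way and a p under 0.05, with limma. Put to the edgeR fit with an unadjusted p, these thresholds called CCN1 and ANKRD1 higher and 0 of 10 lower. They called 11.8% of all genes higher and 6.09% lower. The shUBXN1 values lay wholly above the shCon values for 6 of the 10 genes and wholly below for 2, beside 39.4% and 38.6% of all genes.

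The count of 5 higher rests on small margins for ANKRD1, AMOTL2 and LATS2. It was 3 without shCon replicate 1, 2 without shCon replicate 2 and 3 without shUBXN1 replicate 2. DESeq2 called 2 of the 10 higher, CCN1 and CCN2.

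**Figure D1:**
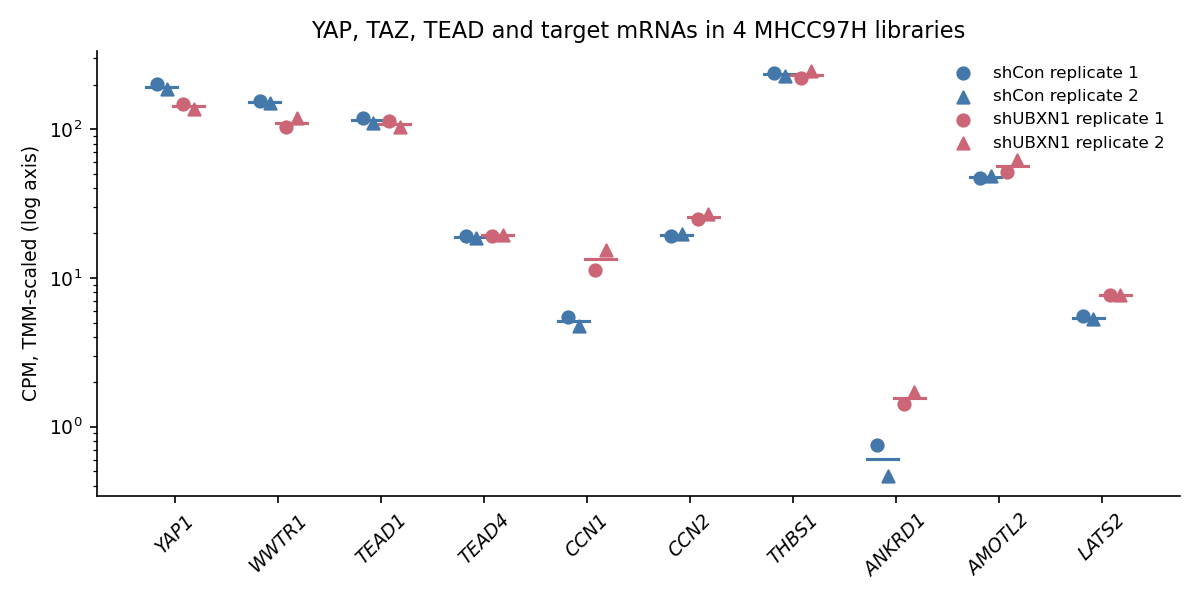
CPM (TMM-scaled, log axis) of the 10 mRNAs in each library, with blue points for shCon, red points for shUBXN1 and a bar at each group's mean. YAP1 and WWTR1 are lower in both shUBXN1 libraries, TEAD1 and THBS1 overlap between groups, and CCN1 shows the widest separation, from 4.77 and 5.44 CPM to 11.3 and 15.5 CPM.

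YAP1, the coactivator that gives the pathway its main output, stood at 201 and 187 CPM in shCon and at 147 and 138 CPM in shUBXN1. Its groups did not overlap, and both shUBXN1 libraries were low. The mean went from 194 ± 9.46 to 143 ± 6.34 CPM (SD, n = 2 each), a log2 fold change of -0.44 (SE 0.0754, 95% interval -0.60 to -0.28, edgeR quasi-likelihood adjusted p = 0.000185). The fall was called in 15 of 15 alternative settings, at -0.51 to -0.35. YAP1 lies on the plus strand of chr11:102110447-102233424, and genes on the opposite strand cover 10.1% of its exon bases. Coordinates here are those of GENCODE release 44 on GRCh38, as the count table gives none, and 97.9% of that release's gene IDs are in the table.

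WWTR1 encodes TAZ, the paralog of YAP that also works through TEAD. It stood at 156 and 150 CPM in shCon and at 103 and 119 CPM in shUBXN1. Both shUBXN1 libraries were again below both controls, with a wider spread between them than between the controls. The mean went from 153 ± 4.56 to 111 ± 11.4 CPM (SD, n = 2 each), a log2 fold change of -0.47 (SE 0.0818, 95% interval -0.64 to -0.29, edgeR quasi-likelihood adjusted p = 0.000217). Alternative settings gave -0.59 to -0.37, and the fall was called in 15 of 15. WWTR1 lies on the minus strand of chr3:149517235-149736714, and the antisense gene WWTR1-AS1 covers 9.1% of its exon bases on the opposite strand. The sources used here do not say whether reads were counted by strand, so reads of such partners cannot be told apart from those of the genes themselves.

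The balance between the coactivators stayed within the spread of the libraries. The ratio of YAP1 to WWTR1 in TPM, which sets counts against gene length and library size, was 0.381 and 0.371 in shCon and 0.426 and 0.346 in shUBXN1. Which of them is more abundant depends on the length used. The deposited length of WWTR1 is 1603 bases, while its canonical transcript in GENCODE has 5037 bases. With canonical lengths the ratio was 1.20 and 1.16 in shCon and 1.34 and 1.09 in shUBXN1, so the order of levels turned while the comparison between groups kept overlapping ranges.

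TEAD1, a DNA-binding factor through which YAP and TAZ act, stood at 119 and 111 CPM in shCon and at 114 and 104 CPM in shUBXN1. The groups overlapped. The log2 fold change was -0.07 (SE 0.078, 95% interval -0.24 to 0.09, edgeR quasi-likelihood adjusted p = 0.437) and it was called in 0 of 15 alternative settings. TEAD1 lies on the plus strand of chr11:12674421-12944737.

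TEAD4, its paralog, stood at 19.1 and 18.6 CPM in shCon and at 19.2 and 19.6 CPM in shUBXN1. The groups did not overlap, but the lower shUBXN1 value and the higher control nearly met. The log2 fold change was 0.04 (SE 0.103, 95% interval -0.18 to 0.27, edgeR quasi-likelihood adjusted p = 0.74), and removing each library's trend with GC content turned it to -0.08. TEAD4 lies on the plus strand of chr12:2959330-3040676.

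Among the 4 TEAD genes, the makeup in TPM was described without a test. TEAD1 made 27.7% and 27.1% of TEAD transcripts in shCon and 31.9% and 29.8% in shUBXN1. TEAD4 made 24.4% and 25.1% in shCon and 29.5% and 31.0% in shUBXN1. TEAD2 went from 37.5% and 35.3% to 28.2% and 26.4%. The shares of both members were thus higher in shUBXN1 while their own levels did not pass the test, beside a TEAD2 mRNA that fell from 37.3 and 33.3 CPM to 23.3 and 21.3 CPM (log2 fold change -0.66, SE 0.0977, edgeR quasi-likelihood adjusted p = 4.84e-05). CD37 shares 10.7% of the exon bases of TEAD2 on the opposite strand.

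TEAD factors bind a short core motif, and so the promoters of the 10 genes were searched for it. The RefSeq promoters used (GRCh38.p14) run from 250 bases before to 50 bases after each annotated start, and an entry was found for 7 of the 10 genes, with TEAD1, TEAD4 and CCN1 unmatched. Only 1 entry per gene was searched, so any other start of these genes was not covered. GGAATG, searched on both strands, was present in 5 of these 7 promoters with 8 matches, all on the strand of the gene. It was present in 14.0% of all promoters in the table (4928 of 35116). CCN2 held 3 matches, ANKRD1 held 2, and YAP1, THBS1 and LATS2 held 1 each, while the WWTR1 and AMOTL2 windows held none. TGACTCA, the AP-1 motif, was in 4.9% of all promoters, and the CArG box of serum response factor was in 1.3%. Neither was in any of the 7. The windows below are shown because they carry all of these matches. They are printed in the direction of the gene with GGAATG in capitals.
YAP1, chr11:102110273-102110302, plus strand: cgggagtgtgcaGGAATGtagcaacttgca
CCN2, chr6:131951524-131951553, minus strand: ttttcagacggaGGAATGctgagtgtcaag
CCN2, chr6:131951454-131951483, minus strand: gtggggaGGAATGcgaGGAATGtccctgtt
THBS1, chr15:39581021-39581050, plus strand: gaggaatccccaGGAATGcgagcgcccctt
ANKRD1, chr10:90921290-90921319, minus strand: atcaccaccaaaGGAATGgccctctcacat
ANKRD1, chr10:90921198-90921227, minus strand: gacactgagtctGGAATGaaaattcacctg
LATS2, chr13:21061560-21061589, minus strand: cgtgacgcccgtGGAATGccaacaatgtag

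In CCN2 the matches began 169, 104 and 95 bases before the start, the last pair lying side by side in 1 window. Those of ANKRD1 began 220 and 128 bases before the start, that of YAP1 162 bases before and that of THBS1 46 bases before, and that of LATS2 lay 9 bases after the start. The genes with a match did not move one way. CCN2, ANKRD1 and LATS2 rose, YAP1 fell and THBS1 did not pass the test, and of the windows without a match AMOTL2 rose and WWTR1 fell. A match is a run of letters and not a measured binding site, and no binding was measured in these libraries.

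The secreted targets differed among themselves, with CCN1 up by more than CCN2 and THBS1 not past the test. CCN1 (also called CYR61), a matricellular protein that binds integrins, stood at 5.44 and 4.77 CPM in shCon and at 11.3 and 15.5 CPM in shUBXN1. The libraries held 145 and 112 counts of CCN1 for the control and 280 and 364 for the knockdown. Both shUBXN1 libraries lay well above both controls, although they differed from each other by more than the controls did. The mean went from 5.10 ± 0.475 to 13.4 ± 2.99 CPM (SD, n = 2 each), 2.62-fold higher with a 95% interval of 2.01 to 3.42 (log2 fold change 1.39, SE 0.178, edgeR quasi-likelihood adjusted p = 1.27e-05). The rise was called in 15 of 15 alternative settings, at 1.13 to 1.60, and stood at the 92.1 percentile of log2 fold changes of all genes tested. CCN1 lies on the plus strand of chr1:85580761-85584589, in 5 exons.

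CCN2 (CTGF), the connective tissue growth factor that is often read as an index of YAP activity, stood at 19.1 and 19.8 CPM in shCon and at 24.8 and 26.8 CPM in shUBXN1. Again the groups did not overlap. The mean went from 19.5 ± 0.527 to 25.8 ± 1.42 CPM (SD, n = 2 each), 1.33-fold higher (log2 fold change 0.41, SE 0.0997, 95% interval 0.19 to 0.62, edgeR quasi-likelihood adjusted p = 0.00304). It was called in 15 of 15 alternative settings, at 0.34 to 0.49. CCN2 lies on the minus strand of chr6:131948176-131951372, and LINC01013 covers 11.9% of its exon bases on the opposite strand.

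The 2 CCN genes did not rise in proportion. In TPM, CCN2 was 3.42 and 4.05 times as abundant as CCN1 in shCon and 2.14 and 1.68 times in shUBXN1, or 3.74 ± 0.448 against 1.91 ± 0.322 (SD, n = 2 each). The ratios did not overlap between groups, and such a ratio within a library does not depend on how libraries are scaled. An exact permutation test of 2 against 2 libraries cannot reach 0.05, so none was run.

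THBS1, thrombospondin 1, an extracellular regulator of angiogenesis and TGF-β activation, stood at 239 and 230 CPM in shCon and at 220 and 247 CPM in shUBXN1. The shUBXN1 libraries lay on either side of the controls. The log2 fold change was -0.01 (SE 0.0785, 95% interval -0.18 to 0.16, edgeR quasi-likelihood adjusted p = 0.942), and alternative settings gave values on both sides of 0, from -0.11 to 0.08. THBS1 lies on the plus strand of chr15:39581079-39599466, in 22 exons, and shares 4.9% and 4.5% of its exon bases with FSIP1 and THBS1-AS1 on the opposite strand. THBS1 was 3.76 and 3.48 times as abundant as CCN2 in TPM in shCon and 2.66 and 2.76 times in shUBXN1.

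ANKRD1, a nuclear ankyrin-repeat cofactor induced by YAP in many cell types, was rare. The control libraries held 20 and 11 counts of it and the knockdown libraries 35 and 40. These gave 0.75 and 0.468 CPM in shCon, with exact 95% counting intervals of 0.458 to 1.16 and 0.234 to 0.838, and 1.41 and 1.71 CPM in shUBXN1, with intervals of 0.985 to 1.97 and 1.22 to 2.33. Intervals cover counting error only. The interval of shCon replicate 1 reached into that of shUBXN1 replicate 1. The fold change was 2.53 with a 95% interval of 1.3 to 4.91 (log2 fold change 1.34, SE 0.447, edgeR quasi-likelihood adjusted p = 0.0195). The call was lost without shCon replicate 2 (1.04, adjusted p = 0.154 in edgeR), without shUBXN1 replicate 2 (1.18, adjusted p = 0.0946 in edgeR) and with DESeq2 (adjusted p = 0.107). ANKRD1 lies on the minus strand of chr10:90912096-90921087.

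The remaining targets are themselves brakes on the pathway. AMOTL2, an angiomotin that holds YAP at junctions, stood at 46.9 and 48.8 CPM in shCon and at 51.6 and 62.3 CPM in shUBXN1. Both shUBXN1 values lay above the controls, and shUBXN1 replicate 2 stood further above them than replicate 1. The mean went from 47.9 ± 1.37 to 56.9 ± 7.55 CPM (SD, n = 2 each), 1.19-fold higher (log2 fold change 0.25, SE 0.0917, 95% interval 0.05 to 0.45, edgeR quasi-likelihood adjusted p = 0.0309). Without shUBXN1 replicate 2 it was 0.09 (edgeR adjusted p = 0.343), and the call was also lost without shCon replicate 1 (edgeR adjusted p = 0.122) and without shCon replicate 2 (edgeR adjusted p = 0.111). AMOTL2 lies on the minus strand of chr3:134355347-134375479, and the pseudogene RPL39P5 shares 2.9% of its exon bases on the same strand.

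LATS2, one of the pair of kinases that phosphorylate YAP and TAZ, stood at 5.51 and 5.28 CPM in shCon and at 7.64 and 7.65 CPM in shUBXN1. The libraries of each group lay close together and the groups did not overlap. The mean went from 5.40 ± 0.166 to 7.64 ± 0.00629 CPM (SD, n = 2 each), 1.42-fold higher (log2 fold change 0.50, SE 0.172, 95% interval 0.13 to 0.87, edgeR quasi-likelihood adjusted p = 0.0225). These values rest on 147 and 124 counts for the control and 189 and 179 for the knockdown. The call was lost without shCon replicate 1 (0.53, edgeR adjusted p = 0.066), without shCon replicate 2 (0.45, edgeR adjusted p = 0.118) and with DESeq2 (0.48, adjusted p = 0.152). LATS2 lies on the minus strand of chr13:20973036-21061586.

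**Figure D2:**
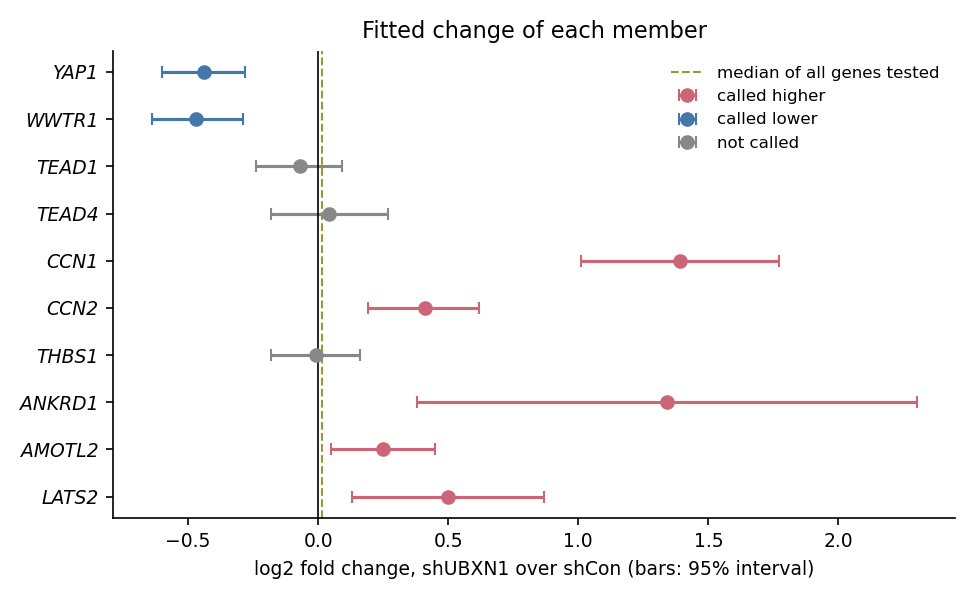
Log2 fold change of each of the 10 mRNAs, shUBXN1 over shCon, from the edgeR fit, with 95% intervals as bars and the median of all genes tested (0.016) as a dashed line. YAP1 and WWTR1 lie to the left of 0, 5 targets lie to the right, and the intervals of TEAD1, TEAD4 and THBS1 cross 0.

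On the TPM scale, with the deposited gene lengths, the order of levels in shCon ran from WWTR1 at 199 and 185 to ANKRD1 at 0.853 and 0.517. YAP1 (75.6 and 68.5 TPM) and THBS1 (62.5 and 58.4 TPM) came next after WWTR1. The first place of WWTR1 depends on its deposited length, as with canonical lengths YAP1 was 1.20 and 1.16 times WWTR1 in shCon. TEAD1 (25.7 and 23.2 TPM), TEAD4 (22.7 and 21.5 TPM) and AMOTL2 (21.1 and 21.3 TPM) were neighbours within a narrow range, and whether they differ was not tested. CCN2 followed at 16.6 and 16.8 TPM, then CCN1 at 4.86 and 4.13 TPM and LATS2 at 2.02 and 1.88 TPM. In shUBXN1 the order of YAP1 and THBS1 was turned, with YAP1 at 59.2 and 51.6 TPM and THBS1 at 61.3 and 63.7 TPM. CCN2 stood at 23 and 23.1 TPM there, inside the range of TEAD1 (26.3 and 22.2 TPM), and CCN1 rose to 10.8 and 13.7 TPM. AMOTL2 stood at 24.7 and 27.7 TPM and LATS2 at 2.99 and 2.77 TPM, still above ANKRD1 at 1.71 and 1.92 TPM.

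Other genes known as YAP/TAZ targets were listed, with earlier results of these data known, to place the 6 target members among them. Of 20 such genes tested, 12 rose, 2 fell and 6 did not pass the test, beside 28.0% higher and 28.2% lower of all genes tested. Their median log2 fold change was 0.53, beside 0.016 over all genes tested. Of the 6 target members, 5 rose and 1 did not pass the test, and the calls of ANKRD1, AMOTL2 and LATS2 were lost in some alternative settings. Over the alternative settings, 10 to 13 of the 20 were higher and 2 to 3 lower. The largest rises were those of ARHGEF17 at 3.75 on the log2 scale with 9 and 15 counts in shCon and 175 and 140 in shUBXN1, and CCDC80, a matrix protein, at 2.07. GADD45A, a stress and DNA damage gene, and NUAK2, a kinase, followed at 1.82 and 1.72. BIRC5 (survivin), which is tied to cell division, fell by 0.87 and TGFB2, a TGF-β ligand, fell by 0.39 on the log2 scale. Exons of TGFB2 share 22.7% of their bases with TGFB2-OT1 on the same strand. Of 14 of these genes with a RefSeq promoter, 3 held GGAATG, beside 14.0% of all promoters.

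Among 22 upstream regulators of the Hippo pathway, 20 were tested, of which 6 rose, 4 fell and 10 did not pass the test. Of all genes tested, 28.0% rose, 28.2% fell and 56.2% were called either way, so this list was not called more often than genes at large. Of the core cascade other than LATS2, the kinases STK3, STK4 and LATS1 and the scaffold SAV1 did not pass the test. STK3 and STK4 (MST2 and MST1) had log2 fold changes of -0.10 and -0.13 (adjusted p = 0.322 and 0.123 in edgeR), their scaffold SAV1 0.17 (adjusted p = 0.303 in edgeR) and LATS1, the paralog of LATS2, 0.17 (SE 0.0903, adjusted p = 0.123 in edgeR). LATS1 stood at 30.9 and 29.4 CPM in shCon and 35.6 and 32.3 CPM in shUBXN1. Exons of ATL1 cover 31.9% of those of SAV1 on the opposite strand.

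The LATS cofactors moved apart, as MOB1A fell by 0.42 and MOB1B rose by 0.63 on the log2 scale. NF2 (merlin), which brings LATS to the membrane, fell from 56.1 and 52.7 CPM to 27.8 and 29.1 CPM (log2 fold change -0.93, SE 0.083, edgeR quasi-likelihood adjusted p = 3.67e-07). The protocadherin FAT1 fell by 1.20 and WWC2, a LATS activator, fell by 0.58, with 21.8% of exon bases of WWC2 shared with CLDN22 on the opposite strand. FRMD6, a FERM-domain activator of the pathway, rose by 1.69, AJUBA, which inhibits LATS, by 0.66, and the kinase TAOK2 by 0.65 on the log2 scale. AMOT, a paralog of AMOTL2, had 6 and 6 counts in shCon and 0 and 0 in shUBXN1 and was not tested, and neither was DCHS1. AMOTL1, another paralog of AMOTL2, was tested and did not pass (log2 fold change 0.6, edgeR adjusted p = 0.106). Of the other TEAD and VGLL genes, 4 of 6 were tested. TEAD2 and VGLL3 fell, VGLL3 by 0.38 (edgeR adjusted p = 0.0316, called in 8 of 15 alternative settings). TEAD3 (-0.22, edgeR adjusted p = 0.165) and VGLL4 (0.09, edgeR adjusted p = 0.28) did not pass the test. VGLL1 and VGLL2 were not tested.

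**Figure D3:**
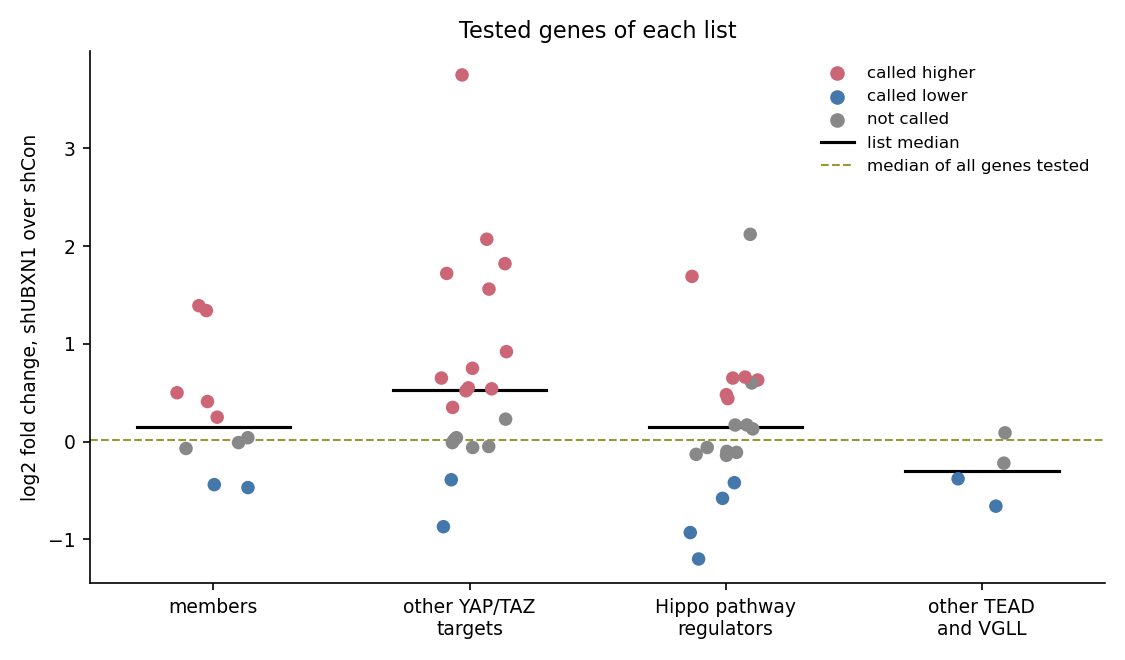
Log2 fold change, shUBXN1 over shCon, of every tested gene among the 10 members, 20 other YAP/TAZ targets, 20 Hippo pathway regulators and 4 other TEAD and VGLL genes, coloured by call, with each list's median as a bar. The other targets centre at 0.53 with ARHGEF17 highest, the members and the regulators centre at 0.15, and the TEAD and VGLL genes at -0.30.

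Markers of other cell types moved between the groups as well. Fibroblast markers, mostly LUM, summed to 33.3 and 33.8 CPM in shCon and 17.3 and 19.8 CPM in shUBXN1, and COL1A1, at 4 to 59 counts, moved the other way. Endothelial markers, mostly PECAM1 and KDR, summed to 48.4 and 49.9 CPM in shCon and 92.6 and 99.5 CPM in shUBXN1, while CDH5, which defines endothelial cells, had 0 to 6 counts in a library. The labels name MHCC97H cells only, so these markers are described here as mRNAs of that line and not as a share of other cells. Any tie between them and the values of CCN1, CCN2 and THBS1 was not tested. Leukocyte markers, mostly CD68, summed to 91.3 to 99.6 CPM over the libraries, with CD3E at 0 in all 4 and PTPRC at 0 to 4 counts. Within that list CD68 fell by 0.25 on the log2 scale (edgeR adjusted p = 0.0106), while CD79A rose from 8.1 and 10.7 CPM to 21.5 and 21.9 CPM (edgeR adjusted p = 3.39e-06). Cholangiocyte markers (KRT7, KRT19 and EPCAM) summed to 337 and 335 CPM in shCon and 211 and 227 CPM in shUBXN1. That fall was carried by KRT19, from 295 and 290 CPM to 116 and 131 CPM, while KRT7 rose from 41.3 and 44 CPM to 94 and 95.3 CPM (edgeR adjusted p = 2.09e-08).

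**Figure D4:**
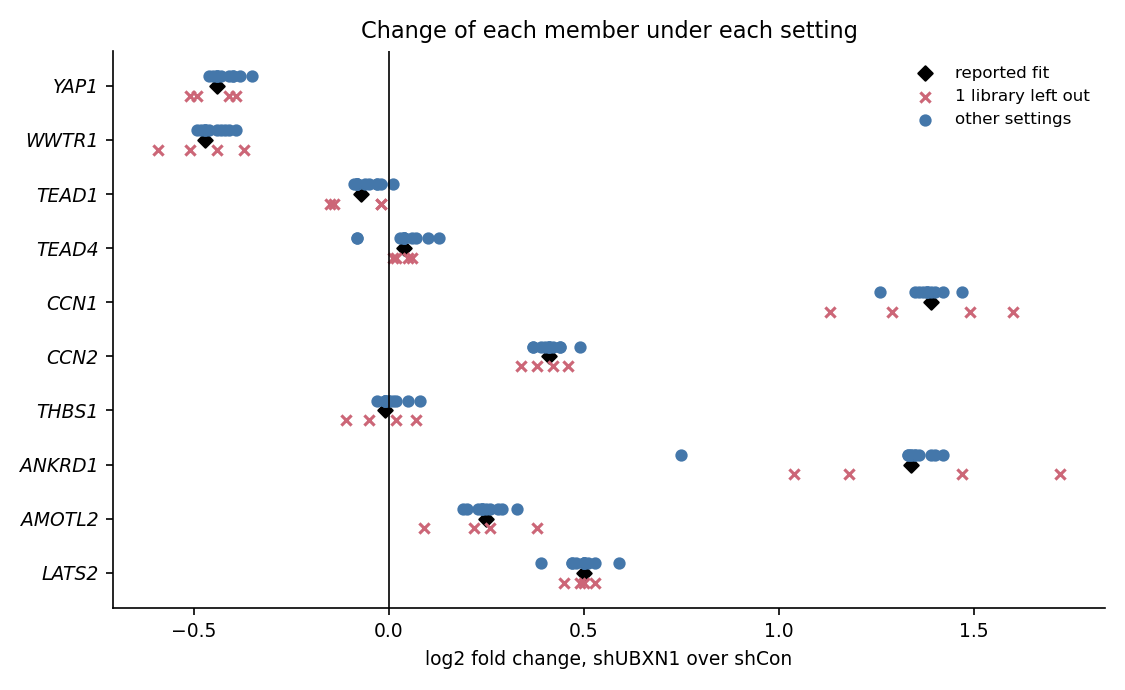
Log2 fold change of each of the 10 mRNAs in the reported fit (black), with 1 library left out (crosses) and under the other settings (blue). YAP1, WWTR1, CCN1 and CCN2 keep to 1 side of 0 throughout, as do ANKRD1 (0.75 to 1.72), AMOTL2 (0.09 to 0.38) and LATS2 (0.39 to 0.59), while TEAD1, TEAD4 and THBS1 lie around 0.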

How the data were processed

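The authors deposited 1 table of expected counts, without normalization, beside a length for each gene. Between 62.4% and 64.6% of values above 0 were whole. By the paper's methods reads were aligned with Hisat2 to GRCh38, whereas the submitters' processing notes list GRCh37, HISAT2 2.0.4 and StringTie 1.3.0. The counting tool, annotation release and use of strand are not given in the sources used here. Counts were rounded, filtered with filterByExpr, scaled by TMM and tested two-sided with glmQLFit and glmQLFTest in edgeR 4.0.16 (R 4.3.3), with Benjamini-Hochberg adjustment over 16863 genes. No block was used. The standard error of a log2 fold change is that value over the root of its F statistic. Intervals use the fit's total degrees of freedom, at a median of 14.1 over genes. Of these, 12.1 were borrowed from the spread of all genes. Of 61541 gene IDs, 61369 matched a symbol in GENCODE release 44.

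The members, gene lists and tests were chosen with earlier results of these data known. Named genes are all 10 members, UBXN1, the genes of the Hippo core kinase cascade (SAV1, MOB1A, MOB1B and NF2 included), the TEAD and VGLL genes, and from each other list the 4 largest called changes in each direction. AMOT, AMOTL1, DCHS1, CCN3, CCN4 and the marker genes are named outside that rule, after their values were seen. Alternatives were DESeq2 1.42.0, scaling to the total count, no filter, at least 10 counts in every library, limma-voom and limma on log2(TPM + 1) with limma 3.58.1, a replicate block, leaving out each library, and the fold change rule. GC correction alone or with the block, unrounded counts, and no mitochondrial genome counts were added after seeing the data. Replicates differed by more than sampling noise (chi-square per degree of freedom 3.83 in shCon and 8.48 in shUBXN1). The biological coefficient of variation was 0.0711.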

Additional observations from a re-analysis of the deposited data

How the results depend on the processing

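Directions and calls of YAP1, WWTR1, CCN1 and CCN2 were kept under every alternative with an adjusted p, and under the fold change rule CCN1 alone of these 4 was called. DESeq2 called 2 members higher in place of 5, with ANKRD1 at 1.33, AMOTL2 at 0.23 and LATS2 at 0.48 on the log2 scale no longer past the threshold. With the fold change rule, 2 members were higher and 0 lower, and 1997 genes were higher and 1027 lower. LATS2 was at 0.39 (adjusted p = 0.0563) with limma on TPM, and AMOTL2 at 0.20 (edgeR adjusted p = 0.0861) after the GC correction. With limma on log2(TPM + 1), CCN1 was at 1.26 and ANKRD1 at 0.75, so ANKRD1 was there below a fold change of 2. Leaving out 1 library gave 2 to 5 members higher, and log2 fold changes of 0.09 to 0.38 for AMOTL2, 0.45 to 0.53 for LATS2, 1.04 to 1.72 for ANKRD1 and -0.11 to 0.07 for THBS1. Fold changes near 0 turned sign. TEAD1 was at 0.01 and THBS1 at 0.08 with total count scaling. THBS1 was at 0.02 with at least 10 counts in every library, 0.05 with TPM, 0.01 after the GC correction, 0.00 after the GC correction with the block and 0.00 without mitochondrial counts. TEAD4 was at -0.08 after the GC correction, with or without the block. The cause was not tested. Total count scaling made 5324 genes higher and 3969 lower (57.3% of calls higher, beside 49.9%), and DESeq2 made 3464 higher and 4018 lower. Of the 15 alternatives with an adjusted p, ANKRD1 was called in 12, LATS2 in 11 and AMOTL2 in 10.

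Replicate numbers are shared between groups but no label ties them to a culture or day, and deviations of same-numbered libraries correlated at 0.039. A replicate block gave 5000 genes higher and 5023 lower and again 5 members higher and 2 lower, with CCN1 at an adjusted p of 7.85e-13 and LATS2 at 0.014 in edgeR.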

Other observations

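Relatives of the target members were listed as well. Of 9 genes related to CCN1, CCN2, THBS1 and ANKRD1, 5 were tested. Of these 1 rose and 0 fell, beside 28.0% higher and 28.2% lower of all genes tested. THBS3, a thrombospondin paralogous to THBS1, stood at 23.1 and 21.2 CPM in shCon and at 91.8 and 71.8 CPM in shUBXN1 (log2 fold change 1.88, SE 0.11, edgeR quasi-likelihood adjusted p = 6.22e-09). THBS3-AS1 shares 25.9% of its exon bases on the opposite strand, and MTX1 shares 3.2%. CCN4 stood at 5.81 and 4.38 CPM in shCon and at 4.20 and 3.29 CPM in shUBXN1 (log2 fold change -0.45, SE 0.236, edgeR adjusted p = 0.123), and CCN3 at 0.724 to 1.20 CPM over all libraries with overlapping groups.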
